A study of Homo sapiens with 18 samples.

Results

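Giant scaffold and ligase genes are described here as a set of 10 human genes with very long coding sequences: AHNAK, PCLO, MACF1, DST, UTRN, SYNE2, HUWE1, UBR4, HERC2 and DYNC1H1. The set was chosen by name, and AHNAK was put first because its half-life was already known to be shorter with the inhibitor in these data, so the half-lives below are a description and carry no test. Of the 10 genes, 9 were among the 8996 genes of the table, and HERC2 was absent from it. Metabolic labelling with 4-thiouridine (s4U) followed by sequencing of mRNA 3′ ends, an assay known as SLAM-seq, was used to fit RNA half-lives in wild-type HEK293T cells, an embryonic kidney line. One set of cultures received STM2457, which inhibits METTL3, the enzyme that writes most N6-methyladenosine (m6A) on mRNA, and the other received DMSO, the solvent. After 3 h, s4U was added at 100 µM for 90 or 180 min, or was left out, and each of the 6 combinations had 3 samples. The STM2457 dose was not given in the sources used here.

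For each gene the table gave 1 half-life and 1 synthesis rate per treatment, fitted over libraries it does not list. No value for a single sample, no error and no read count was analysed here, so depth is unknown and no 2 values can be set against a spread between replicates. The file names no time unit, and hours are inferred: the largest half-life, 69.3, equals ln 2 divided by 0.01, which would be a floor on the decay rate. A gene is called longer-lived or shorter-lived where STM2457 over DMSO passed 1.5-fold, a rule of size only. Of the genes fixed as typical of HEK293T, 3 of 4 were in the table (LIN28B, NEFM and VIM), against 1 of 8 markers of other cell types (COL1A1); the table holds no expression level to go with them.

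m6A is placed mostly at DRACH motifs, and exon junction complexes are known to keep the writer away from sequence near exon junctions, so long internal and last exons carry much of the mark. m6A bound by YTHDF readers is known for speeding the decay of mRNA, and removal of the mark by METTL3 inhibition is used to reveal that effect. The genes here encode very large proteins that link the cytoskeleton to membranes, the nucleus or the synapse, move cargo along microtubules, or attach ubiquitin to other proteins. They differ widely in how their coding sequence is cut into exons.

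DRACH stands for A, G or T, then A or G, then A, then C, then A, C or T, and was searched on the transcript strand with overlapping matches counted. A motif was called far where its central A lay at least 100 nt from the nearest exon junction. Such motifs are read from sequence and are not a measurement of m6A. Of 8527 genes with a coding sequence in GENCODE release 29, 99.9% held a motif and 75.4% a far one, with a median of 3 far motifs.

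The sites below show how far from a junction these genes can carry a motif. Each line is the coding motif farthest from any junction in its gene, 29 nt from GENCODE transcript sequence on GRCh38, 5′ to 3′, with the motif in capitals.
AHNAK: ctcttctagcaaTGACAgtgggaataagg
MACF1: gagatgctgaaaAAACAgttagggagaga
PCLO: tgtcccaccctcTGACAcaccttctctca
UTRN: aaggcattggagAAACTcagagacctgca
The AHNAK site (chr11:62516797-62516825, minus strand) lies in the last coding exon, 17264 nt from the nearest junction. The MACF1 site (chr1:39333934-39333962, plus strand) lies 2706 nt from one and the PCLO site (chr7:82954400-82954428, minus strand) 2522 nt. The farthest UTRN site (chr6:144748368-144748396, plus strand) is only 133 nt from a junction. In UTRN the exons leave almost no room for a far motif, and in AHNAK nearly all of the coding sequence is such room.

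AHNAK has 3 coding exons, and the last one holds 17328 of its 17670 coding nt (98.1%). This is the longest coding exon of all 8527 genes. AHNAK also had the most far motifs of all these genes, 380 of its 392 coding motifs, all of them in that exon. PCLO came next among all genes with 291 far motifs over 25 coding exons, of which the longest has 5080 nt. MACF1 and DST, which are paralogs, had almost the same layout, with 225 and 220 far motifs, 101 and 98 coding exons, and a longest coding exon of 5451 and 5508 nt. SYNE2 had 89 far motifs over 115 coding exons. DYNC1H1 and HUWE1 had 33 far motifs each, from totals of 277 and 258. Of these, 16 in DYNC1H1 lay in its longest coding exon of 1077 nt, and 11 in HUWE1 in one of 601 nt. UTRN and UBR4, with no coding exon over 269 and 344 nt, had 11 and 10 far motifs, from totals of 277 and 316. The members thus differed little in motifs per kb of coding sequence, from 19.7 in HUWE1 to 27.3 in DST, and widely in far motifs per kb, from 0.643 in UBR4 to 21.5 in AHNAK.

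**Figure D1:**
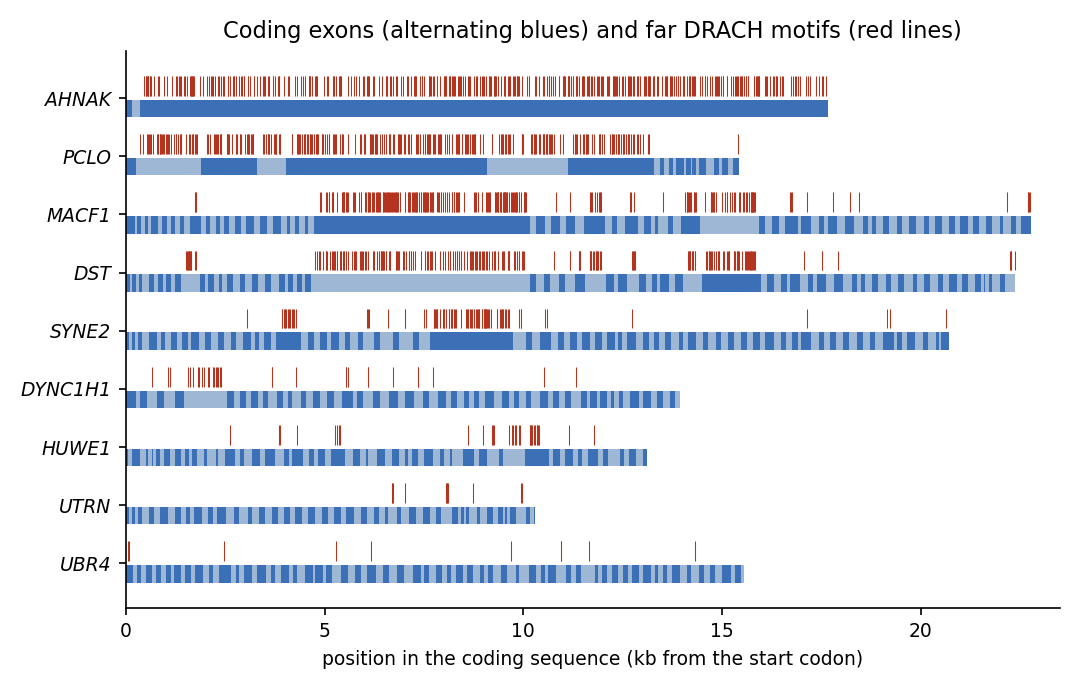
Coding exons of the 9 giant genes as alternating blue blocks and their far DRACH motifs as red lines above, by position in the coding sequence in kb, for the transcript with the longest coding sequence. AHNAK is almost 1 block with 380 far motifs along it, MACF1 and DST carry theirs mainly over 1 long internal exon, and UBR4, with 106 coding exons, has 10.

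The AHNAK protein is built of internal repeats. AHNAK differs from the other members in a further way, since some of its far motifs lie in exact copies of a stretch. Of its 380 far motifs, 84 (22.1%) sat in a 29-nt stretch that occurs more than once around far motifs in the transcript. No repeated stretch was found around far motifs in any other member, and 42 of 8527 genes (0.493%) had one. No gene had more motifs in repeated stretches than AHNAK. The stretches with the most copies are printed with the motif in capitals, because they show that near-identical sites recur along the giant exon.
AHNAK, 5 copies: tgttcatggcccAGACTggcacctgaaga
AHNAK, 4 copies: agaagtggatgtGAACCtgcccaaggctg
AHNAK, 4 copies: agatgtggatgtGAACCtgcccaaggctg
The copies of the first lie between 62520093 and 62528289 on chromosome 11, and all 4 of its spacings are multiples of 3 nt. The closest copies of the second are 384 nt apart, which is 128 codons. GGAC, the core most often methylated in DRACH sites, made up 115 of the far motifs of AHNAK (30.3%), against a median of 20% over 2173 genes with at least 10 far motifs. The upper quartile of those genes was also 30.3%. Among the other members the share was 30.0% in UBR4 (3 of 10) and 24.2% in HUWE1 (8 of 33), and in the rest it was below the median, from 18.2% in DYNC1H1 to 7.73% in DST.

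The exon layouts rest on the annotated transcript with the longest coding sequence, and the table does not say which isoform the reads came from. AHNAK also has an annotated transcript with 447 coding nt in 4 exons and 0 far motifs. The length that the file lists for AHNAK is 18761 nt, near the 18787 nt of the long transcript. For DST, UTRN, SYNE2 and HUWE1 the listed length equals that of the transcript used, at 22431, 12339, 21842 and 14796 nt. The listed length differs from that used in MACF1 (24828 against 24319 nt) and PCLO (20284 against 20329 nt). It also differs in DYNC1H1 (19940 against 20003 nt) and UBR4 (15892 against 15906 nt).

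AHNAK was the only member whose half-life was shorter in STM2457 by more than 1.5-fold. AHNAK (ENSG00000124942.14, chromosome 11, 62433542 to 62556235, GRCh38) encodes a giant scaffold under the plasma membrane that binds S100A10 and annexin A2. The DMSO half-life was 8.36 h and the STM2457 half-life 2.14 h, 3.90-fold shorter (log2 ratio -1.96). In DMSO it was the second most stable of the 9 and in STM2457 the second least stable, above DST alone. Of all 8996 genes, 1.49% had a lower ratio.

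The ratio of DYNC1H1 had the opposite sign. DYNC1H1 (ENSG00000197102.12, chromosome 14, 101964510 to 102056443) encodes the heavy chain of cytoplasmic dynein, the main motor toward microtubule minus ends. With DMSO its half-life was 18.8 h, with STM2457 69.3 h (log2 ratio 1.88). The STM2457 value is the largest the table holds, so the 3.69-fold difference is set by that limit. The fitted rates imply a steady-state abundance 5.49-fold that in DMSO. Starting from the DMSO level, 6 h at the STM2457 rates would give 1.26-fold, so that steady state would not be reached. With its STM2457 value at the limit of the table, the size of the DYNC1H1 ratio is uncertain.

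The other 7 members stayed within 1.5-fold, from a log2 ratio of -0.52 in UBR4 to 0.21 in SYNE2. Counted over the members in the table, 1 of 9 was longer-lived and 1 of 9 shorter-lived, beside 28.5% and 24.9% of all genes. At 2-fold the counts were the same, beside 19.7% and 11.3%. With the limit lowered to 0.32 on the log2 scale, UBR4 and HUWE1 joined AHNAK, which gave 1 longer-lived and 3 shorter-lived members beside 35.4% and 36.5%. With both half-lives between 0.5 and 24 h, DYNC1H1 dropped out, and 0 of 8 members were longer-lived and 1 shorter-lived, beside 20.3% and 27.4%. The members' median log2 ratio was -0.059, and the median over all genes was -0.0052. Since the set was chosen with the ratio of AHNAK known, nothing is read from these shares.

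**Figure D2:**
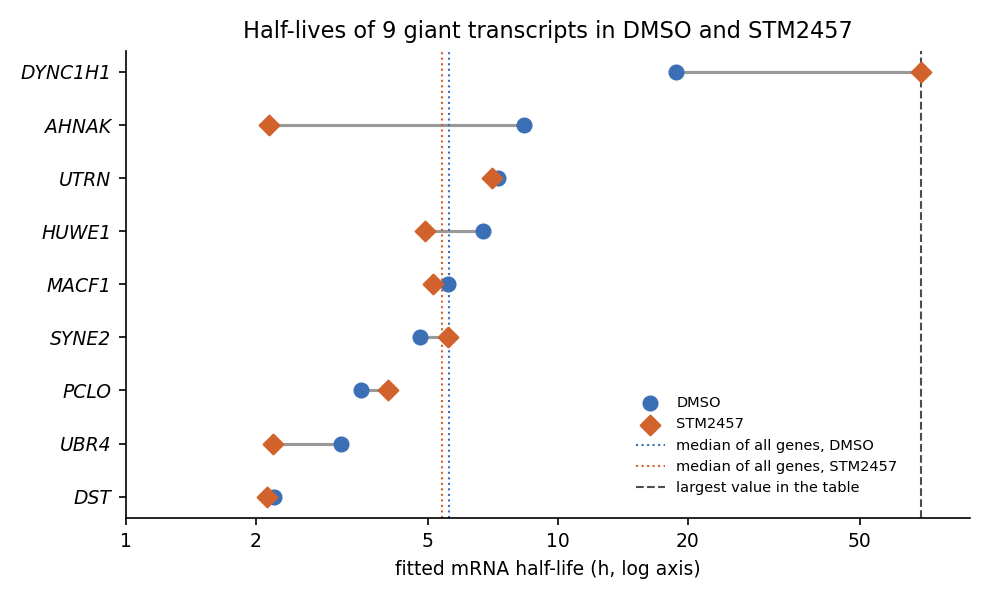
Fitted half-life in hours (log axis) of each giant gene in DMSO (blue circles) and STM2457 (orange diamonds), with dotted lines at the medians of all genes and a dashed line at the largest value in the table. AHNAK crosses from 8.36 to 2.14 h and DYNC1H1 reaches 69.3 h, while the pairs of points for DST, UTRN and MACF1 nearly touch.

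In DMSO the order from least to most stable was DST, UBR4, PCLO, SYNE2, MACF1, HUWE1, UTRN, AHNAK and DYNC1H1. The range was 2.21 to 18.8 h, around a median of 5.58 h, and the median of all genes was 5.61 h. In STM2457 the order became DST, AHNAK, UBR4, PCLO, HUWE1, MACF1, SYNE2, UTRN and DYNC1H1, with a median of 4.93 h. Neighbours in these orders cannot be separated, since no half-life has an error.

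MACF1, DST and UTRN encode linkers of the spectrin superfamily. MACF1 (chromosome 1, 39081316 to 39487177) joins actin to microtubules; its half-lives were 5.58 h in DMSO and 5.14 h in STM2457. DST (chromosome 6, 56457987 to 56954628), the other spectraplakin, had 2.21 and 2.12 h. UTRN (chromosome 6, 144285701 to 144853034), the relative of dystrophin, had 7.29 and 7.04 h. All 3 ratios lay between -0.12 and -0.050 on the log2 scale, so these transcripts had nearly the same fitted half-life with and without the inhibitor. MACF1 and DST did so with over 200 far motifs each, and UTRN with 11.

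Within the family, MACF1, DST and UTRN lay above the middle. Of 18 plakin, spectrin and dystrophin genes in the list, 11 were in the table. None of them was longer-lived and 3 were shorter-lived (27.3%), beside 28.5% and 24.9% of all genes. The median log2 ratio of the 11 was -0.37. The lowest was PLEC, plectin, which also has a giant coding exon (6216 nt) and went from 6.71 to 2.69 h (2.49-fold shorter). The highest was SPTAN1, the alpha spectrin of non-erythroid cells, at 5.41 and 6.77 h. PLEC, with 110 far motifs, lay on the side of AHNAK and not of MACF1 and DST.

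SYNE2 (chromosome 14, 63852983 to 64226433) encodes nesprin-2, which spans the outer nuclear membrane and joins the nucleus to actin. Its half-lives were 4.81 h (DMSO) and 5.58 h (STM2457). The list around it holds 10 genes: nesprins, SUN proteins and lamins, with emerin (EMD), a protein of the inner nuclear membrane, and TOR1A, an ATPase of the nuclear envelope. Of these, 8 were in the table. Of the 8, 5 were shorter-lived (62.5%) and 1 was longer-lived (12.5%), beside 24.9% and 28.5% of all genes. Of coding genes with a DMSO half-life of at least 5 h, 36.7% were shorter-lived and 21.8% longer-lived. That class was chosen after values were seen. The 5 shorter-lived genes lie in it, while SUN1 (4.29 h), SYNE2 (4.81 h) and TOR1A (3.27 h) lie outside it. The median DMSO half-life of the 8 was 7.61 h, and their median log2 ratio was -1.12. LMNB1, lamin B1, was the lowest, from 12.8 to 4.38 h. TOR1A, named after its values were seen, was the 1 longer-lived gene and stood at the largest value in STM2457. Within 0.5 to 24 h in both treatments, SYNE2 had the highest ratio of this list.

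PCLO (chromosome 7, 82754013 to 83162930) encodes piccolo, a scaffold of the presynaptic active zone. The half-life of PCLO was 3.51 h with DMSO and, 1.16-fold longer, 4.06 h with STM2457. Its fitted synthesis rate was 106 with DMSO and 35.3 with STM2457 in the table's own unit, which the file does not name (log2 ratio -1.58). This was the lowest synthesis ratio of the 9 members and of all 48 genes with a coding sequence of at least 10000 nt, and 0.434% of genes in the table had a lower one. Of 13 active zone genes listed, 6 were in the table, with 1 longer-lived (ERC1, 5.40 to 10.1 h), 1 shorter-lived (UNC13B, 10.6 to 4.45 h) and a median log2 ratio of -0.19. The shares were 16.7% each, beside 28.5% longer-lived and 24.9% shorter-lived of all genes.

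HUWE1 and UBR4 are ubiquitin ligases, and both had lower values in STM2457 without passing 1.5-fold. HUWE1 (chromosome X, 53532096 to 53686729), a HECT ligase with many nuclear and cytosolic substrates, had half-lives of 6.72 and 4.93 h. UBR4 (chromosome 1, 19074506 to 19210276), a ligase of the N-degron pathway, had 3.16 and 2.20 h. The UBR4 value is uncertain. AL137127.1, an annotated RNA on the same strand that is also in the table, overlaps the 3′ end of UBR4 (chromosome 1, 19072110 to 19075511), where 3′ reads fall. Its own half-lives were 4.04 and 2.41 h, a log2 ratio of -0.74, and how reads were divided between them was not given in the sources used here.

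Of 30 HECT, HERC and UBR ligases listed, most of them of ordinary size (median coding sequence 3762 nt), 21 were in the table. Of these, 15 lay within 1.5-fold and 3 passed it on either side, around a median log2 ratio of -0.24. The 3 on either side made up 14.3%, beside 28.5% longer-lived and 24.9% shorter-lived of all genes. NEDD4L, which marks membrane channels for removal, was the highest in the range, from 4.06 to 8.67 h, and UBE3C, which extends chains at the proteasome, the lowest, from 4.55 to 2.38 h. RPS27AP12, a pseudogene also in the table, lies on the same strand within UBE3C, and how reads were divided between them is unknown. WWP2, named after its values were seen, reached the largest value in STM2457. HERC1, a giant relative of HERC2 named after its values were seen, went from 4.72 to 3.05 h, 1.55-fold shorter. The other giant ligases, named after their values were seen, stayed within 1.5-fold, with log2 ratios of -0.35 in BIRC6, -0.11 in MYCBP2 and 0.30 in HECTD4 (2.25 to 2.77 h). RNF213 was not in the table. HERC2 itself, a giant HECT ligase of the DNA damage response (chromosome 15, 28111040 to 28322152), had no row by symbol or by identifier. GENCODE lists 9 pseudogene copies of HERC2, none of which was in the table either; whether shared sequence bears on its absence was not tested.

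The other dynein and dynactin genes had ratios of both signs. Of 25 dynein and dynactin genes listed, 23 were in the table. Their median log2 ratio was -0.38, with 9 shorter-lived genes (39.1%) and 3 longer-lived ones (13.0%), beside 24.9% and 28.5% of all genes. Of coding genes with a DMSO half-life of at least 5 h, a class chosen after values were seen, 36.7% were shorter-lived and 21.8% longer-lived, with a median of -0.28. From the dynein list, DCTN6 (4.96 h), DYNC1LI2 (4.61 h) and DYNLL2 (4.84 h) lie outside that class. The longer-lived genes of the list were DYNC1H1, DYNLT3 (a light chain) and DCTN3 (a dynactin subunit), named after their values were seen. All 3 were at the largest value in STM2457, and CAPZB was at that value in both treatments. DYNC2LI1, a light intermediate chain of the ciliary dynein, was the lowest, from 19.8 to 3.89 h. ACTR1B, an actin-related subunit of dynactin, was the highest in the range, at 5.82 and 7.70 h. Dynein and dynactin transcripts were stable in DMSO, with a median of 11.9 h, and DYNC1H1 was above it.

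**Figure D3:**
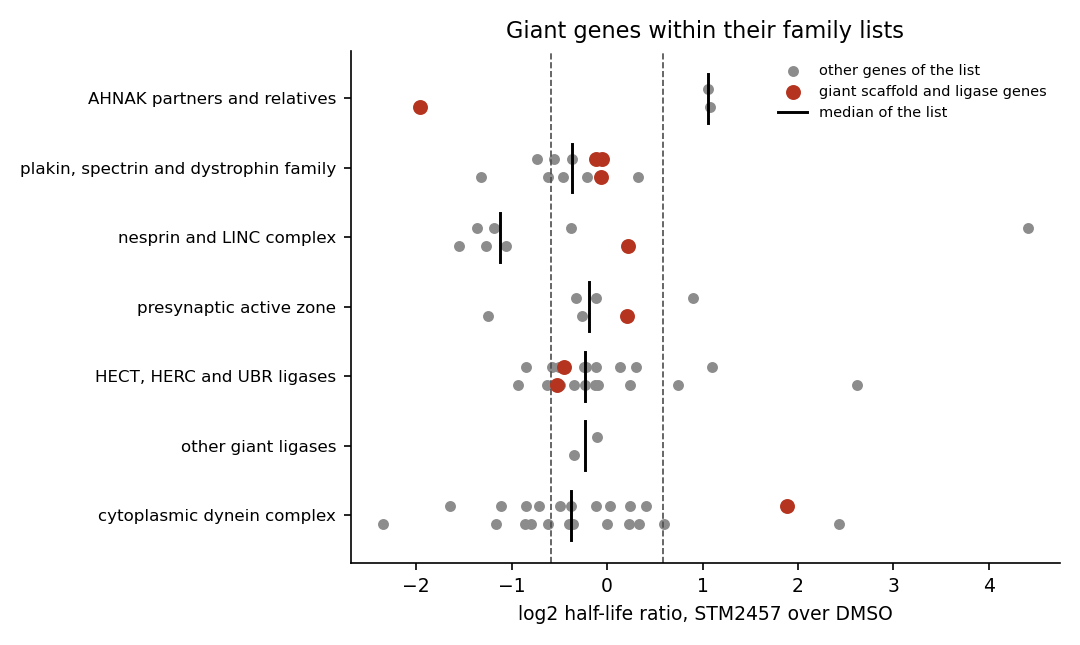
Log2 half-life ratio, STM2457 over DMSO, of every gene in the table from the 7 family lists, with giant genes in red, the other genes in grey, a black bar at the median of each list and dashed lines at 1.5-fold; vertical offsets only separate points. AHNAK lies at -1.96, opposite its partners S100A10 and ANXA2, and DYNC1H1 at 1.88 with the dynein list's median at -0.38.

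The binding partners of AHNAK had ratios of the opposite sign. Of 5 genes listed as AHNAK partners or relatives, 3 were in the table, while AHNAK2 and PRX were not. S100A10 had half-lives of 19.5 and 41.1 h, and ANXA2 33.3 h and the largest value, 69.3 h. Both lie outside 0.5 to 24 h and were named after their values were seen. At steady state their fits imply an abundance 1.88-fold that in DMSO for S100A10 and 3.85-fold for ANXA2. In 6 h, synthesis with no decay could reach 1.19 and 1.23, so neither level could be reached. With half-lives outside that range, the size of both ratios is uncertain. AHNAK is the only one of the 3 with a giant exon.

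The ratios of fitted synthesis and half-life had opposite signs in AHNAK and the same sign in DYNC1H1. The synthesis rate of AHNAK was 19.4 in DMSO and 38.8 in STM2457, a log2 ratio of 1.00, higher than in 94.4% of all genes. AHNAK had the lowest DMSO rate of the 9 members, with UTRN next at 51.5. With no read counts, whether a low rate makes its fit less certain was not tested. The shorter half-life and the higher synthesis of AHNAK with STM2457 together imply a steady-state abundance 0.513-fold that in DMSO. Synthesis and half-life come from the same fit, and whether one offsets an error in the other was not tested. In DYNC1H1 the log2 synthesis ratio was 0.57. In the other 7 members it was below 0, from -1.58 in PCLO and -0.55 in SYNE2 to -0.12 in DST. The implied abundance was below that in DMSO in all 8 members other than DYNC1H1, from 0.387-fold in PCLO to 0.888-fold in UTRN. These are steady-state values. Starting from the DMSO level, 6 h at the STM2457 rates would give 0.583-fold in AHNAK, 0.607-fold in PCLO and 0.950-fold in UTRN. Over all genes the median log2 synthesis ratio was -0.057.

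**Figure D4:**
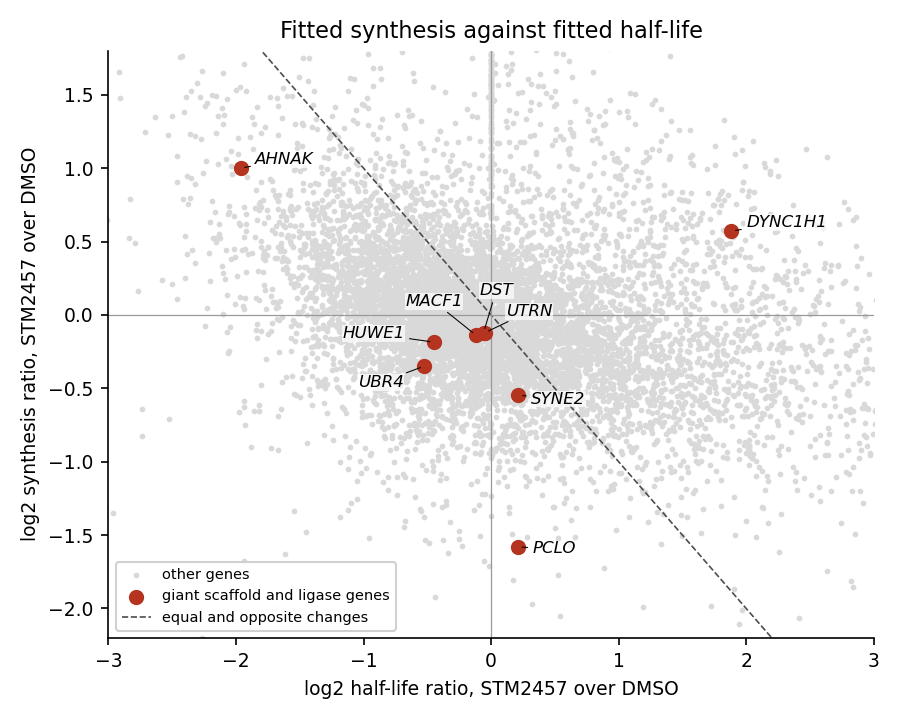
Log2 ratio of fitted synthesis rates against log2 ratio of fitted half-lives, STM2457 over DMSO, for giant genes (red, labelled) and other genes (grey); the dashed line marks changes that cancel, and 530 of 8993 genes lie outside the axes. AHNAK (half-life -1.96, synthesis 1.00) lies upper left, DYNC1H1 upper right, PCLO (synthesis -1.58) low near the middle, and the rest near the centre.

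To place the members among genes of like size, all 48 genes with a coding sequence of at least 10000 nt were taken, 9 of them members. AHNAK had the lowest log2 ratio of the 48, DYNC1H1 the highest. Of the 39 others, 24 lay within 1.5-fold, 8 were shorter-lived (20.5%) and 7 longer-lived (17.9%), with a median of 0.019. Both shares were below those of all genes, 24.9% and 28.5%. Within 0.5 to 24 h, next above AHNAK came PLEC, then UNC13B, a synaptic vesicle priming factor, and VPS13D, a lipid transfer protein (5.24 to 2.43 h). At the upper end were FAT1, a giant cadherin, from 2.98 to 8.14 h, SPEN, a transcriptional corepressor, from 1.68 to 4.18 h, and ZFHX4, a homeodomain factor, from 1.71 to 4.20 h. Giant coding length as such thus came with ratios of both signs, and most members lay near the middle of this class.

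AHNAK also stood at the low end of genes with a giant coding exon, whatever their other exons. Of 36 genes with a coding exon of at least 5000 nt, 17 lay within 1.5-fold, 12 were longer-lived (33.3%) and 7 shorter-lived (19.4%). The shares of all genes were 28.5% and 24.9%. The median log2 ratio of the 36 was 0.24. The members among them were AHNAK, MACF1, DST and PCLO, and all 4 lay below that median. The highest in the range were APC, the Wnt pathway tumour suppressor (2.45 to 16.9 h), ZNF292, a zinc-finger protein (1.01 to 3.03 h), and ANKRD11, a chromatin regulator (2.94 to 8.27 h). APC is overlapped on the same strand by AC008575.1, a gene also in the table, so its value is uncertain. At steady state, the rates fitted to APC would give 4.39 times the abundance seen with DMSO, while 6 h without decay allows 2.08 times. The same held for ANKRD11, at 2.63 against 2.32, and FAT1, at 2.05 against 2.04. A steady state need not be reached in 6 h, so these limits are no check on the half-lives. The lowest after AHNAK were PLEC, UNC13B and CRYBG3 (2.82 to 1.49 h).

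**Figure D5:**
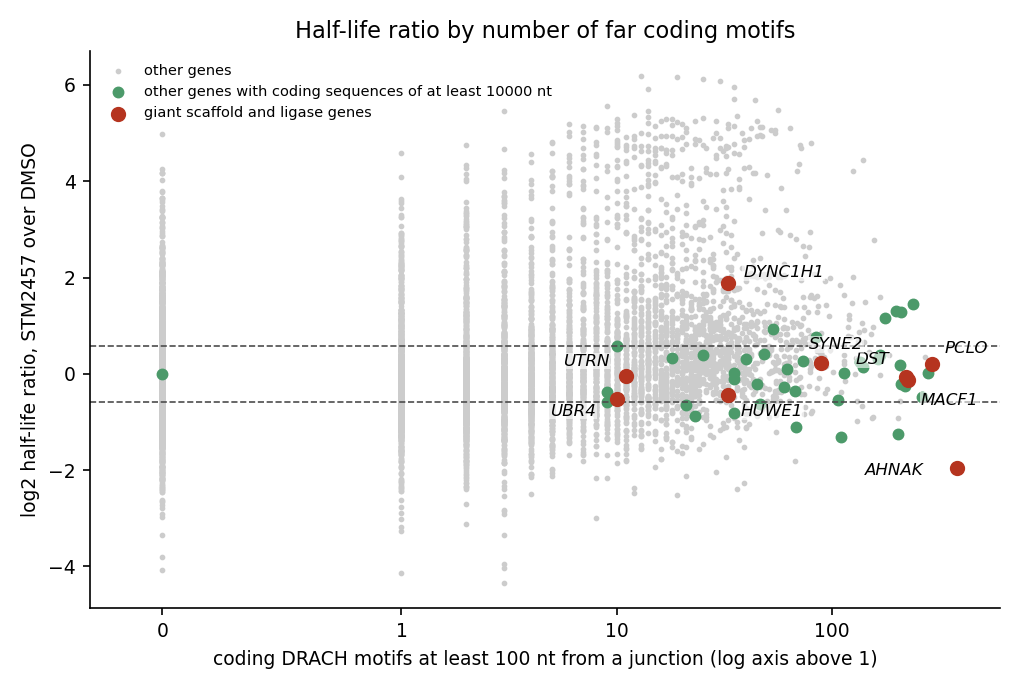
Log2 half-life ratio, STM2457 over DMSO, against the number of far coding DRACH motifs (log axis above 1) for giant genes (red), other genes with coding sequences of at least 10000 nt (green) and other genes (grey), with dashed lines at 1.5-fold. AHNAK has the most far motifs, 380, and the lowest ratio of the genes with at least 100, while PCLO, MACF1 and DST lie between -0.12 and 0.21.

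Number of far motifs placed AHNAK at the same end. Of 67 genes with at least 100 far motifs, 29 were longer-lived (43.3%) and 8 shorter-lived (11.9%), beside 28.5% and 24.9% of all genes. The median log2 ratio of the 67 was 0.36, and AHNAK had the lowest. The members with at least 100, AHNAK, PCLO, MACF1 and DST, again all lay below the median. Genes with 10 to 40 far motifs numbered 1787, with a median of 0.44. In that class UBR4 (-0.52), HUWE1 (-0.45) and UTRN (-0.05) lay below the median, and DYNC1H1 above it. Spearman's rho of the ratio with the number of far motifs was 0.262 over all 8527 coding genes, 0.109 over the 48 with long coding sequences, -0.175 over the 67 with at least 100 far motifs and -0.258 over the 36 with a giant exon. With the DMSO half-life it was -0.297, -0.479, -0.668 and -0.666 in the same order. These points are genes of 1 experiment, and the DMSO half-life is itself part of the ratio.

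The members also differ in genomic span, which the choice of genes did not use. UTRN (567 kb), DST (497 kb), PCLO (409 kb), MACF1 (406 kb) and SYNE2 (373 kb) are far above the median of 33.9 kb, and all 5 stayed within 1.5-fold. The short ones were HUWE1 (155 kb), UBR4 (136 kb), AHNAK (123 kb) and DYNC1H1 (91.9 kb). The shortest spans were those of AHNAK and DYNC1H1, which passed 1.5-fold in opposite directions, DYNC1H1 at the largest value in the table. Of 234 genes spanning at least 300 kb, 70 were longer-lived (29.9%) and 51 shorter-lived (21.8%), near the 28.5% and 24.9% of all genes. Their median log2 ratio was 0.026. Over all 8527 coding genes Spearman's rho of the ratio with span was -0.059.

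The genes most like AHNAK in fitted kinetics were not giants. By distance over both log2 half-lives and the log2 synthesis ratio, the nearest of all genes were CDK8, a kinase of the Mediator complex, at 9.01 and 2.21 h (distance 0.123), PPP1R14A, an inhibitor of myosin phosphatase, at 8.16 and 2.36 h (0.261), and CELSR2, an adhesion receptor of planar polarity, at 8.92 and 2.55 h (0.281). CDK8 had 3 far motifs in 1392 coding nt, PPP1R14A 2 in 441 nt and CELSR2, itself long, 67 in 8769 nt. This likeness rests on 2 treatments with 1 fit each. In DMSO the synthesis rates were 17.3 in CDK8, 23.9 in PPP1R14A and 11.7 in CELSR2, beside 19.4 in AHNAK.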

How the data were processed

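RNA was taken from HEK293T cells and sequenced from mRNA 3′ ends, per the labels' protocols. The build GRCh38.p12 and the tools STAR 2.7.8a and FastQC 0.11.9 come from the submitters' processing notes; how kinetics were fitted and genes filtered was not given in the sources used here. In the deposited table are half-lives, synthesis rates and the authors' log2 ratios, with 1 value per gene and treatment; libraries were joined before deposit, so replicate spread and depth cannot be given. Log2 ratios were recomputed from the half-lives (largest difference from the deposited ones 1.27e-14). Genes were called at 1.5-fold, with no test.

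Structure and motifs came from GENCODE 29, which may differ from the annotation behind the table: 8982 identifiers matched without version, and 8527 had a coding sequence. The distance of a motif counts bases from its A to the exon edge. The counting steps were tested on simulated data. Software was Matplotlib 3.10.9, SciPy 1.17.1, pandas 2.3.3 and NumPy 2.4.6 under Python 3.11.15.

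Members and lists were chosen with earlier results of these data known. Besides the members, the text names the 3 highest and 3 lowest genes of each structure class, the highest and lowest gene of each list, all with both half-lives between 0.5 and 24 h, and the 3 genes nearest to AHNAK. Alternatives changed the fold, the range, the centring, the class limits, the transcript and the motif rule.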

Additional observations from a re-analysis of the deposited data

How the results depend on the processing

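No paired analysis was possible because the table holds 1 fitted value per gene and treatment, and for the same reason no replicate could be left out. With both half-lives between 0.5 and 24 h, which leaves out DYNC1H1, 0 members were longer-lived; with the limit at a log2 ratio of 0.32, 3 were shorter-lived (AHNAK, UBR4 and HUWE1) beside 36.5% of all genes. The median log2 ratio of the members was -0.089 in that range, -0.054 after subtracting the median of all genes, -0.095 as a mean and -0.054 without AHNAK. AHNAK lay 1.91 below the median of the other members (a difference of -1.91), -2.10 from their mean and -1.90 from their median in the range. For coding sequences of at least 10000 nt the median of 0.0034 became 0.10 at 7500 nt (133 genes), 0.018 at 5000 nt (392 genes), 0.017 with the transcript of most coding exons, -0.0099 in the range, 0.019 without the members and 0.0086 after centring. For giant coding exons the median of 0.24 became 0.36 at 4000 nt, 0.35 at 3000 nt, 0.26 with the transcript of most coding exons, 0.21 in the range and 0.35 without the members. With the transcript of most coding exons AHNAK had 0 far motifs in place of 380. In the other 8 members that was the same transcript, so their counts could not change and were not tested by this choice. Moving the distance to 50 nt changed the far count by over 1.5 times in 7 members and to 200 nt in 5 (UBR4 and UTRN then had 0), while AHNAK had 386 and 376; GGACT alone left 16 in AHNAK and 0 to 11 in the others.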

Other observations

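The splits in this part were chosen after the values were seen and are given as descriptions. Among the 67 genes with at least 100 far motifs, the 16 with a DMSO half-life of at least 5 h had a median log2 ratio of -0.43, with 0 longer-lived and 4 shorter-lived. The 51 with a DMSO half-life under 5 h had a median of 0.66, with 29 longer-lived and 4 shorter-lived. AHNAK (8.36 h) and MACF1 (5.58 h) belong to the first group, PCLO (3.51 h) and DST (2.21 h) to the second. Over all genes with a coding sequence the same split gave medians of -0.28 and 0.25. At 5 h or more, 21.8% of those genes were longer-lived and 36.7% shorter-lived, so the 4 of 16 (25%) lie below that share. Under 5 h the shares were 36.6% and 10.1%. The DMSO half-life is the denominator of the ratio, so the split and the ratio share their error.

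Median ratios also differed by coding length among the genes with many far motifs. With at least 100 far motifs, the 21 genes with a coding sequence of at least 10000 nt had a median log2 ratio of 0.024. Of these, 4 were longer-lived (19.0%) and 3 shorter-lived (14.3%), both below the 28.5% and 24.9% of all genes. The 46 genes with a shorter coding sequence had a median of 0.61, with 25 longer-lived (54.3%) and 5 shorter-lived (10.9%). The same held with 10 to 40 far motifs, where 13 genes with long coding sequences, among them UBR4, HUWE1, UTRN and DYNC1H1, had a median of -0.050 and the 1774 others 0.45. The length classes also differed in median DMSO half-life, the denominator of the ratio. With at least 100 far motifs it was 3.51 h for long and 2.66 h for shorter coding sequences. With 10 to 40 it was 6.10 and 2.89 h. Whether the DMSO half-life accounts for the differences by length was not tested. Scaled by length, genes with at least 10 far motifs per kb numbered 1225 and had a median of 0.75. The members among them, AHNAK (21.5 per kb) and PCLO (18.9 per kb), had log2 ratios of -1.96 and 0.21. MACF1 (9.88 per kb) and DST (9.83 per kb) fell just short of that density.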
